A study of Homo sapiens with 4 samples.

Results

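The genes described here were 46 genes for the kinetochore, the spindle checkpoint and the assembly of the mitotic spindle. Their rows were found by gene name among the 58735 genes of each count table, from a list drawn up when earlier results of these data were known. All 46 had enough reads to enter the test, which covered 15075 genes. The 4 RNA-seq libraries were made from HaCaT, an immortalized line of human keratinocytes. Both siControl libraries came from cells of WT genotype that received a normal control siRNA, and both siALKBH5 libraries came from cells in which ALKBH5, an RNA demethylase that removes m6A, was knocked down with siRNA. All cells were therefore transfected, and the knockdown was transient and acted on a single cell line. Which siRNA sequence was used for these libraries, and how long after transfection RNA was taken, are not given in the sources used here.

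The kinetochore is the protein machine that forms on the centromere of each chromosome and holds it to spindle microtubules. Its inner layer, the constitutive centromere-associated network (CCAN), sits on nucleosomes that carry the histone variant CENPA, and its outer layer, the KMN network, binds microtubules. As long as a kinetochore is unattached, the spindle checkpoint holds back anaphase, and Aurora B in the chromosomal passenger complex (CPC) releases faulty attachments. Transcripts of many of these genes are known to accumulate late in the cell cycle, so in keratinocytes their levels differ between dividing and resting cells.

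Many late cell cycle promoters carry a CHR element, written TTTGAA, often with a CCAAT box further upstream, and the promoters of the 46 genes were therefore searched for these letters on both strands, and for the E2F motifs TCCCGC and TGGCGC. RefSeq windows of 300 bases (250 before and 50 after the start site, GRCh38.p14) were matched by symbol for 37 of the 46 genes, in 43 windows. The stretches below are the 80 bases before the start site, 5′ to 3′ on the strand of the gene, with TTTGAA and CCAAT (or its reverse complement, ATTGG) in capitals. The first 6 belong to genes that rose with a TTTGAA in the stretch, the next to a strong riser without one, and the last pair to genes of the MIS12 complex that did not pass the test. They were chosen after the values were seen.
PLK1 (chr16:23678809-23678888, plus strand): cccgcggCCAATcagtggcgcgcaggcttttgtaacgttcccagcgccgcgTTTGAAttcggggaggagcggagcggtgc
CDCA8 (chr1:37692436-37692515, plus strand): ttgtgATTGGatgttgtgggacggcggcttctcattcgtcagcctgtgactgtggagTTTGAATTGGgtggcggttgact
HMMR (chr5:163460552-163460631, plus strand): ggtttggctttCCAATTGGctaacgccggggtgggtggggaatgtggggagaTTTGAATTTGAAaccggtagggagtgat
INCENP (chr11:62123931-62124010, plus strand): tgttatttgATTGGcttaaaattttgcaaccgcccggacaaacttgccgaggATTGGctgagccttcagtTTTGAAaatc
BUB1B (chr15:40160989-40161068, plus strand): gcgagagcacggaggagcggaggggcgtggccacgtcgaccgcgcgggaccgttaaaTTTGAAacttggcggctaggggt
CENPA (chr2:26785976-26786055, plus strand): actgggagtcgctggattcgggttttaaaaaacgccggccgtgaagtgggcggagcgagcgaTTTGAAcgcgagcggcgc
SPC24 (chr19:11155783-11155862, minus strand): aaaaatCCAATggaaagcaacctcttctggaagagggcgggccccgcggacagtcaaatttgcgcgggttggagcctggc
NSL1 (chr1:212791778-212791857, minus strand): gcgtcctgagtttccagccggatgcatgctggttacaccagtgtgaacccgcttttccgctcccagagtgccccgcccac
PMF1 (chr1:156212927-156213006, plus strand): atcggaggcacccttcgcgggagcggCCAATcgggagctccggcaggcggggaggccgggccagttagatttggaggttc
Counted from the start site, the last base of TTTGAA lay at position -24 in PLK1, -18 in CDCA8 and BUB1B, -13 in CENPA and -5 in INCENP. HMMR held it in 2 copies side by side, ending at -23 and -17, and in CDCA8 the TTTGAA overlapped a CCAAT on the other strand. SPC24 and PMF1 held a CCAAT but no TTTGAA in their windows, and NSL1 held neither.

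The comparison asks which transcripts differ once ALKBH5 is depleted in keratinocytes, and the target itself was checked first. ALKBH5 was at 93.8 and 87.6 CPM (counts scaled to library size) in the siControl libraries and 51.2 and 49.6 CPM in the siALKBH5 libraries, so that the knockdown left 0.555 of the control level (log2 fold change -0.85, SE 0.05, adjusted p = 6.4e-15 by edgeR's quasi-likelihood test with Benjamini-Hochberg adjustment over all genes, which is the test used for each adjusted p below). The libraries held 16017502 to 18837807 counts, with 9.63% to 10.2% on mitochondrial genes, and the deepest was 1.18 times the shallowest. The 7 keratinocyte markers used to check the cell type were all expressed, at 255 to 11312 CPM. Of these KRT5, KRT14, KRT6A and SFN rose, TP63 (log2 fold change -0.09, adjusted p = 0.015) and PERP (-0.16, adjusted p = 1.1e-07) fell and DSG3 did not pass (-0.04, adjusted p = 0.18). Their sum, 16526 and 16103 CPM in siControl against 22044 and 22090 CPM in siALKBH5, was carried mostly by KRT5 (7163 and 6905 CPM against 11184 and 11312 CPM), and the part of these differences in the other results was not tested. Summed markers of other cell types were at 18.7 to 22.8 CPM for 6 fibroblast genes, 32.5 to 35.5 CPM for 3 endothelial genes, 2.61 to 3.89 CPM for 3 melanocyte genes and 0.122 to 0.333 CPM for 3 leukocyte genes, with COL1A2, PDGFRA and TYR at 0 in every library. Within these lists VWF rose (log2 fold change 0.51, adjusted p = 2.1e-05), while CDH5 (-0.69, adjusted p = 5.0e-05), DCN (-1.25, adjusted p = 5.0e-04) and LUM (-1.08, adjusted p = 0.021) fell, and their part in the other results was not tested either. Libraries of a group differed by more than counting noise (chi-square per degree of freedom 1.74 in siControl and 1.85 in siALKBH5) and were counted as separate. The labels do not say whether they were separate cultures, so the p-values measure only the spread between these libraries, which may be technical.

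The kinetochore and spindle genes were higher after ALKBH5 knockdown almost throughout. Of the 46, 40 rose and 0 fell at an adjusted p under 0.05 in edgeR, while 19.3% of all genes tested rose and 17.3% fell. DESeq2 called fewer of all genes, 2054 higher and 1444 lower against 2913 and 2610 in edgeR, and 38 of the 46 higher and 0 lower. At an unadjusted p under 0.05, 0 of the 46 were lower in this edgeR fit or in DESeq2, and 1, MIS12, was lower in edgeR with library size as the only scaling. When a log2 fold change of 1 or more (a doubling) was required as well, 8 genes were called, against 1.62% of all genes tested: CENPM, SPC24, SPAG5, BIRC5, CDCA8, CENPE, PLK1 and CENPI. In 42 of the 46 both siALKBH5 libraries lay above both siControl libraries, which was the case for 32.8% of all genes tested. The median log2 fold change of the 46 was 0.75, with quartiles of 0.52 and 0.96 and a range from -0.16 for MIS12 to 1.49 for CENPM, and over all genes tested the median was -0.01. Of the 15075 genes, 676 (4.48%) had a larger log2 fold change than the median of the 46. Together the 46 took 1354 and 1369 CPM in siControl and 2282 and 2289 CPM in siALKBH5, a 1.68-fold higher sum. More dividing cells, in mitosis or another phase, and more RNA per cell cannot be told apart in these bulk libraries. MKI67, a gene of proliferating cells, was also higher, at 195 and 199 CPM in siControl and 364 and 366 CPM in siALKBH5 (log2 fold change 0.89, SE 0.03, adjusted p = 1.4e-22). In its own assays of HaCaT cells, the paper reports unaltered proliferation and cell cycle after ALKBH5 knockdown. It also reports no significant change of Ki67 staining in the epidermis at wound edges of knockout mice. How those assays relate to the RNA levels here was not tested.

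**Figure D1:**
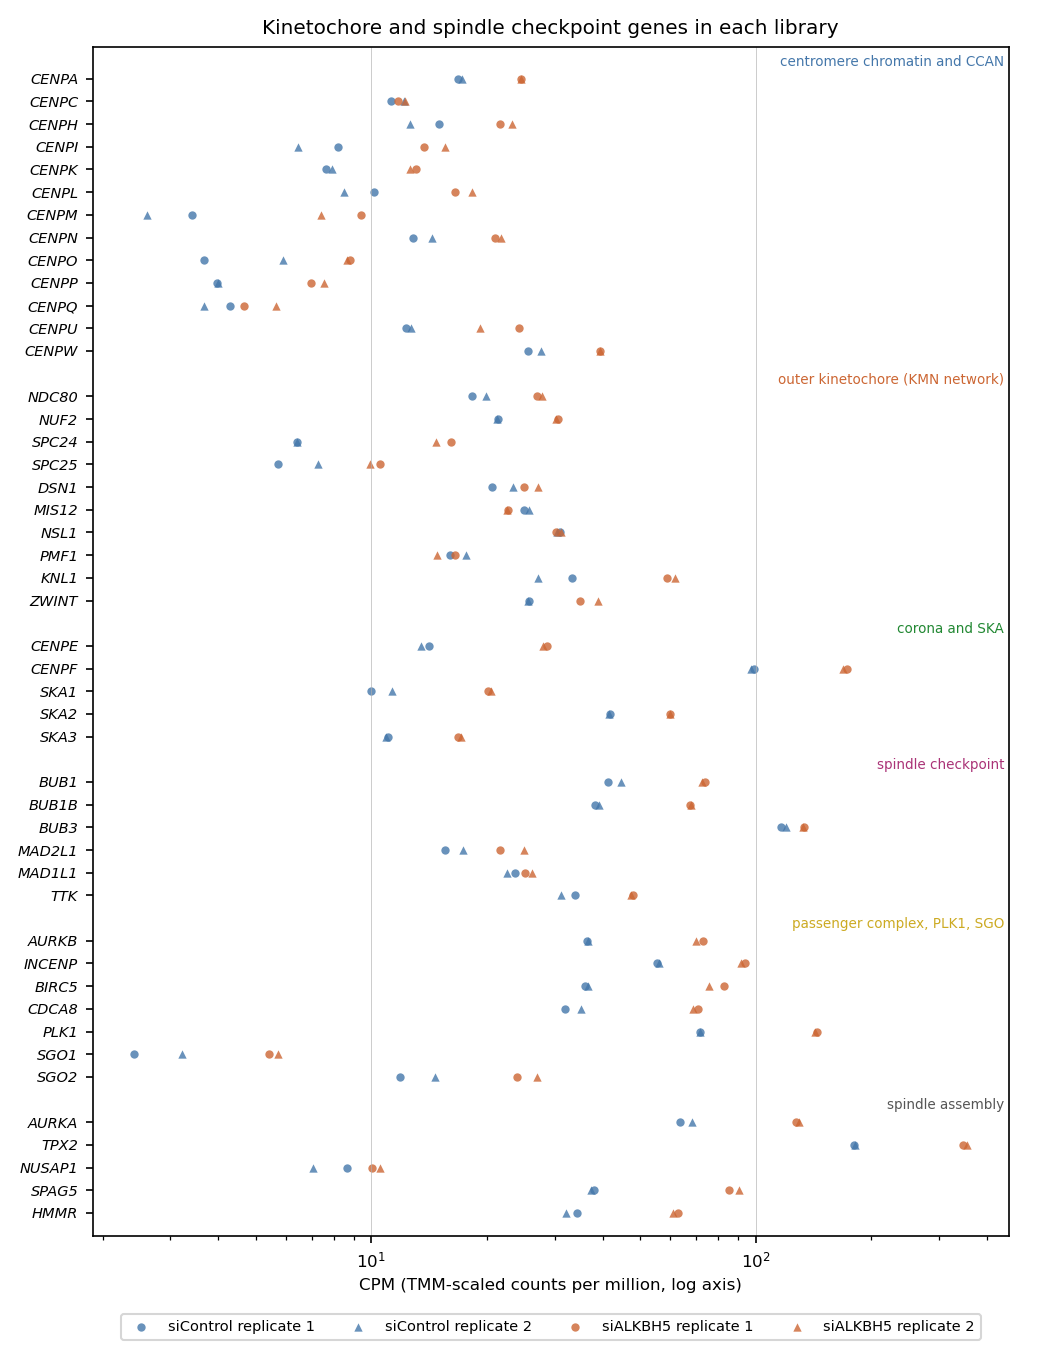
Level of each of the 46 genes in each library, as TMM-scaled CPM on a log axis, with blue for siControl, orange for siALKBH5, circles for replicate 1 and triangles for replicate 2, grouped by role. In 42 genes both orange symbols lie to the right of both blue symbols, with MIS12 the only gene where they lie to the left.

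Of the 13 genes of centromere chromatin and the CCAN 11 rose, and the median over the 13 was 0.73 on the log2 scale. CENPA, the histone variant that marks the centromere, was at 16.8 and 17.2 CPM in siControl and 24.5 and 24.5 CPM in siALKBH5 (log2 fold change 0.53, SE 0.09, adjusted p = 2.4e-05). CENPC, which bridges CENPA nucleosomes to the outer kinetochore, was at 11.2 and 12.2 CPM in siControl and 11.7 and 12.3 CPM in siALKBH5 (log2 fold change 0.03, SE 0.12, adjusted p = 0.87). The CENPA transcript was thus higher in both siALKBH5 libraries than in either siControl library, whereas the values of CENPC overlapped between the groups.

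CENPM, a pseudo-GTPase of the CENP-HIKM subcomplex, showed the highest fold of the 46. The gene lies at chr22:41938721-41947164 (GRCh38, minus strand). Its level was 3.41 and 2.61 CPM in siControl and 9.42 and 7.41 CPM in siALKBH5, from 55 and 47 counts against 176 and 122 counts (log2 fold change 1.49, SE 0.19, adjusted p = 8.6e-08). The replicates of CENPM were not tight, and its log2 fold change ranged from 1.31 to 1.69 as each library was left out in turn. CENPI, another subunit of that subcomplex, went from 8.19 and 6.45 CPM to 13.7 and 15.6 CPM (log2 fold change 1.00, SE 0.14, adjusted p = 3.6e-07). CENPH was at 15.02 and 12.6 CPM in siControl and 21.6 and 23.3 CPM in siALKBH5 (log2 fold change 0.70, SE 0.10, adjusted p = 1.8e-06), and CENPK rose by 0.73 (SE 0.13, adjusted p = 3.4e-05) on the log2 scale. All 4 subunits of CENP-HIKM therefore rose, and per kilobase their summed level was 11.3 ± 1.32 FPKM in siControl and 21.1 ± 0.0486 FPKM in siALKBH5 (mean ± SD, n = 2). FPKM here is the scaled CPM per kilobase of listed gene length. The listed length counts all annotated exon bases of a gene, not those of the transcript expressed. FPKM levels compared between genes therefore depend on these lengths, whereas the length of a gene cancels in its fold. Where exons are shared with other genes, the counts behind a fold can still depend on the annotation.

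Both subunits of the CENP-LN pair, which recognizes CENPA nucleosomes, rose. CENPL was at 10.2 and 8.504 CPM in siControl and 16.5 and 18.3 CPM in siALKBH5 (log2 fold change 0.90, SE 0.12, adjusted p = 3.5e-07). CENPN went from 12.8 and 14.4 CPM to 20.9 and 21.7 CPM (log2 fold change 0.64, SE 0.10, adjusted p = 6.3e-06). CENPW, which has a histone fold and was the second most abundant of the 46 per length at 33.4 ± 1.83 FPKM in siControl, reached 49.5 ± 0.182 FPKM in siALKBH5 (log2 fold change 0.57, SE 0.07, adjusted p = 1.8e-07).

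Of the CENP-OPQU subcomplex, which helps PLK1 dock at the inner kinetochore, CENPO, CENPP and CENPU rose. CENPU was at 12.4 and 12.7 CPM in siControl and 24.2 and 19.1 CPM in siALKBH5 (log2 fold change 0.80, SE 0.11, adjusted p = 6.8e-07), and the log2 fold changes of CENPP and CENPO were 0.86 (SE 0.17, adjusted p = 1.7e-04) and 0.85 (SE 0.18, adjusted p = 2.1e-04). CENPO had the widest gap of the 46 between same-numbered libraries, with log2 ratios of 1.26 and 0.55, with siControl levels of 3.66 and 5.89 CPM and siALKBH5 levels of 8.78 and 8.63 CPM. Without siControl replicate 1 its log2 fold change was 0.57, and without siControl replicate 2 it was 1.25. CENPQ did not pass, at 4.28 and 3.67 CPM in siControl and 4.66 and 5.65 CPM in siALKBH5 (log2 fold change 0.37, SE 0.20, adjusted p = 0.14), although its groups did not overlap. That order, siALKBH5 above siControl, was also seen in 32.8% of all genes tested. Exons of CENPP and CENPO share 42.7% and 31.4% of their bases with other genes on the opposite strand, where IPPK (120 and 113 counts in siControl, 182 and 164 in siALKBH5) and ADCY3 (155 and 196 counts, 313 and 268) were the largest partners, and their part in these values was not tested.

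The outer kinetochore was split by complex. Of the 10 KMN genes 7 rose, with a median log2 fold change of 0.52. All 4 subunits of the NDC80 complex, the rod that grips the microtubule, rose, but of the 4 subunits of the MIS12 complex, the base on which that rod stands, 1 rose.

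NDC80 was at 18.2 and 19.8 CPM in siControl and 26.9 and 27.8 CPM in siALKBH5 (log2 fold change 0.52, SE 0.09, adjusted p = 1.4e-05). Its partner NUF2, the other microtubule-binding subunit, was at 21.4 and 21.3 CPM and 30.7 and 30.3 CPM (log2 fold change 0.51, SE 0.08, adjusted p = 5.5e-06). SPC25, of the dimer that anchors the rod, rose from 5.71 and 7.28 CPM to 10.5 and 9.905 CPM (log2 fold change 0.65, SE 0.15, adjusted p = 7.0e-04). SPC24 (chr19:11131520-11155808, minus strand), its partner in that dimer, had the highest fold of the complex, from 6.39 and 6.39 CPM to 16.1 and 14.8 CPM (log2 fold change 1.27, SE 0.13, adjusted p = 1.3e-09), and was second among the 46.

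In siControl SPC24 was the least abundant subunit of the NDC80 complex per listed length, and its distance to the others narrowed. This rank depends on the listed lengths, 2839 bases for SPC24 and 1841 bases for SPC25. In CPM, SPC24 (6.39 and 6.39) lay between the siControl values of SPC25 (5.71 and 7.28). SPC24 was at 2.25 and 2.25 FPKM in siControl and 5.68 and 5.201 FPKM in siALKBH5, whereas NUF2 was at 6.37 and 6.33 FPKM and 9.13 and 9.001 FPKM. The highest subunit was 2.83 and 2.81 times the lowest in the siControl libraries and 1.61 and 1.73 times the lowest in the siALKBH5 libraries. SPC24 over NDC80, as a ratio of FPKM, was 0.444 and 0.409 in siControl and 0.759 and 0.674 in siALKBH5. With 2 libraries against 2, an exact two-sided permutation test cannot go below p = 0.333, which is what this ratio and 5 of the other 6 ratios compared here gave (0.389 after adjustment over the 7). For that reason the test cannot decide whether a ratio differed between the groups.

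DSN1 was the subunit of the MIS12 complex that rose, from 20.7 and 23.3 CPM in siControl to 24.9 and 27.2 CPM in siALKBH5 (log2 fold change 0.24, SE 0.09, adjusted p = 0.033). This call was lost with DESeq2 (adjusted p = 0.14), without TMM scaling (0.057), without siControl replicate 1 (0.29) and without siALKBH5 replicate 2 (0.2). MIS12 (chr17:5486285-5490814, plus strand) was at 24.9 and 25.8 CPM in siControl and 22.7 and 22.6 CPM in siALKBH5 (log2 fold change -0.16, SE 0.08, adjusted p = 0.13). Although it did not pass, MIS12 was the single gene of the 46 with both siALKBH5 libraries below both siControl libraries. The share of all genes tested in this order is not given here. With 2 libraries a group, such an order is weak evidence of a fall. NSL1 was at 30.97 and 30.3 CPM against 30.2 and 31.2 CPM (log2 fold change 0.00, SE 0.08, adjusted p = 0.99), and PMF1 at 16.01 and 17.6 CPM against 16.5 and 14.8 CPM (log2 fold change -0.10, SE 0.11, adjusted p = 0.49), with overlapping groups in both. Of the exon bases of PMF1, 23.3% are shared with the read-through gene PMF1-BGLAP, which is listed at 0 in all 4 libraries.

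Summed over subunits, the MIS12 complex was at 29.4 and 31.1 FPKM in siControl and 30.2 and 30.6 FPKM in siALKBH5. The NDC80 complex was at 16.8 and 18.05 FPKM in siControl and 28.01 and 27.3 FPKM in siALKBH5. The NDC80 complex was thus at 0.572 and 0.58 of the MIS12 complex in siControl and at 0.926 and 0.893 of it in siALKBH5 (exact permutation p = 0.333, the smallest possible). KNL1, the scaffold that recruits BUB proteins, rose from 33.3 and 27.1 CPM to 58.8 and 61.6 CPM (log2 fold change 1.00, SE 0.07, adjusted p = 3.7e-13), which put it just under a doubling, at 0.998 on the log2 scale. ZWINT, which binds KNL1 and helps to recruit the RZZ complex, was at 25.8 and 25.6 CPM in siControl and 34.96 and 38.95 CPM in siALKBH5 (log2 fold change 0.52, SE 0.08, adjusted p = 1.7e-06).

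**Figure D2:**
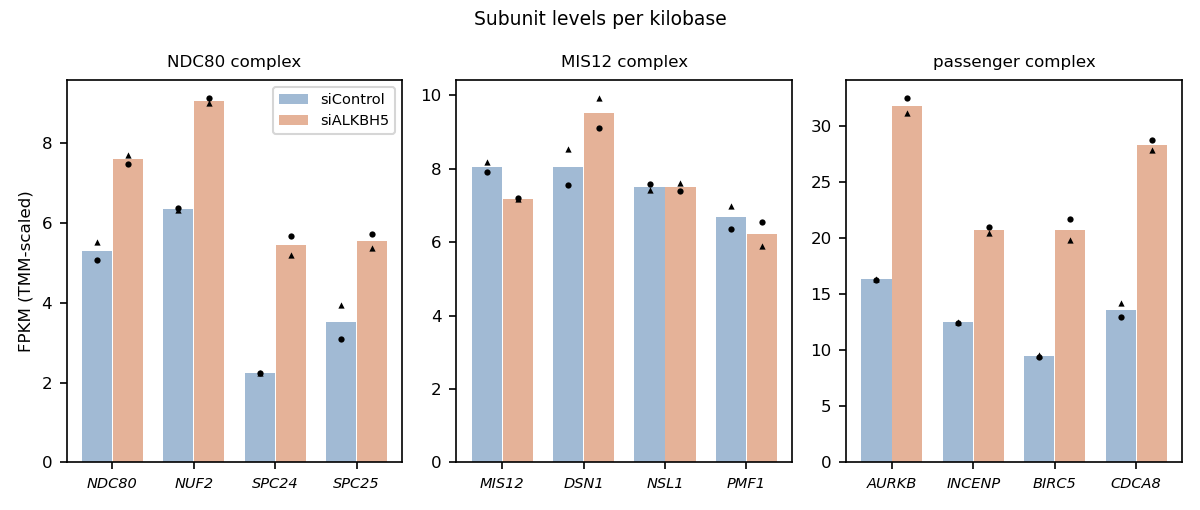
Level per kilobase (TMM-scaled FPKM) of each subunit of the NDC80, MIS12 and chromosomal passenger complexes, with bars for the mean of 2 libraries from 0, blue for siControl and orange for siALKBH5, and points for the libraries (circle replicate 1, triangle replicate 2). All 4 NDC80 subunits and all 4 passenger subunits stand higher in siALKBH5, and SPC24 rises from the lowest bar of its complex at 2.25 FPKM to 5.44 FPKM, while MIS12, NSL1 and PMF1 stand level or lower.

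All 5 genes of the fibrous corona and the SKA complex rose, with a median log2 fold change of 0.80. CENPE, the motor that carries chromosomes to the metaphase plate, doubled from 14.2 and 13.4 CPM in siControl to 28.6 and 28.01 CPM in siALKBH5 (log2 fold change 1.04, SE 0.09, adjusted p = 5.8e-11). CENPF, a large corona protein that binds dynein regulators, was at 99.2 and 97.3 CPM and 173 and 169 CPM (log2 fold change 0.80, SE 0.04, adjusted p = 6.4e-18). Both rose well beyond the spread of their replicates.

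The SKA complex couples kinetochores to shrinking microtubules, and its 3 subunits rose. SKA1 was at 9.99 and 11.3 CPM in siControl and 20.1 and 20.5 CPM in siALKBH5 (log2 fold change 0.93, SE 0.11, adjusted p = 3.2e-08). SKA2 and SKA3 had log2 fold changes of 0.52 (SE 0.06, adjusted p = 1.0e-08) and 0.62 (SE 0.11, adjusted p = 4.2e-05). In sum the complex was at 20.5 ± 0.269 FPKM in siControl and 31.5 ± 0.235 FPKM in siALKBH5 (mean ± SD, n = 2).

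Of the 6 spindle checkpoint genes 5 rose, each by less than the fold threshold, and the median over the 6 was 0.52 on the log2 scale. BUB1B, which encodes BUBR1 of the mitotic checkpoint complex, was at 38.2 and 39.1 CPM in siControl and 67.5 and 67.8 CPM in siALKBH5 (log2 fold change 0.81, SE 0.06, adjusted p = 3.4e-13). BUB1, the kinase that brings the checkpoint proteins to KNL1, was at 41.3 and 44.5 CPM and 73.6 and 72.4 CPM (log2 fold change 0.77, SE 0.06, adjusted p = 6.9e-13). BUB3, the adaptor that both of them bind, rose from 116 and 119.9 CPM to 133 and 133 CPM (log2 fold change 0.17, SE 0.04, adjusted p = 7.1e-04). Per length, BUB1B was at 0.608 and 0.605 of BUB3 in siControl and at 0.938 and 0.947 of it in siALKBH5 (exact permutation p = 0.333, the smallest possible).

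TTK, the kinase MPS1 that starts the checkpoint signal, rose from 33.9 and 31.2 CPM to 47.97 and 47.3 CPM (log2 fold change 0.55, SE 0.07, adjusted p = 6.8e-08). MAD2L1, the inhibitor that is loaded onto CDC20, rose from 15.6 and 17.3 CPM to 21.6 and 25.04 CPM (log2 fold change 0.50, SE 0.10, adjusted p = 1.6e-04). MAD1L1, the platform for MAD2L1 at the kinetochore, did not pass, at 23.7 and 22.6 CPM in siControl and 25.1 and 26.2 CPM in siALKBH5 (log2 fold change 0.15, SE 0.08, adjusted p = 0.18). The groups of MAD1L1 did not overlap, with siALKBH5 above as in 32.8% of all genes tested, but its difference was small. MAD2L1 over MAD1L1, as a ratio of FPKM, was 0.827 and 0.967 in siControl and 1.08 and 1.2 in siALKBH5 (exact permutation p = 0.333, the smallest possible).

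The chromosomal passenger complex, PLK1 and the protectors of cohesion had the highest median of the 6 role groups, 0.97, and all 7 rose. AURKB, the kinase of the passenger complex, was at 36.5 and 36.7 CPM in siControl and 72.8 and 69.9 CPM in siALKBH5 (log2 fold change 0.96, SE 0.06, adjusted p = 4.3e-15). BIRC5 (survivin), which takes the complex to the inner centromere, was at 36.00 and 36.6 CPM and 82.8 and 75.7 CPM (log2 fold change 1.13, SE 0.06, adjusted p = 9.6e-17). CDCA8 (borealin), which binds nucleosomes there, was at 31.96 and 35.2 CPM and 70.9 and 68.8 CPM (log2 fold change 1.06, SE 0.06, adjusted p = 1.6e-15). These 3 subunits about doubled. INCENP, the scaffold that activates the kinase, rose from 55.5 and 56.2 CPM to 93.9 and 91.6 CPM (log2 fold change 0.73, SE 0.05, adjusted p = 4.8e-14).

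Per length, the 4 passenger subunits summed to 51.9 ± 1.19 FPKM in siControl and 102 ± 3.18 FPKM in siALKBH5 (mean ± SD, n = 2). BIRC5 over INCENP was 0.76 and 0.763 in siControl and 1.03 and 0.969 in siALKBH5 (exact permutation p = 0.333, the smallest possible). PLK1, the kinase that acts on kinetochores, centrosomes and the passenger complex, was among the most evenly measured genes, at 71.6 and 71.6 CPM in siControl and 145 and 142 CPM in siALKBH5 (log2 fold change 1.00, SE 0.04, adjusted p = 1.6e-19). The shugoshins SGO1 and SGO2, which shield cohesin at centromeres, differed in level but not in direction. SGO2 was at 11.9 and 14.7 CPM in siControl and 23.9 and 26.98 CPM in siALKBH5 (log2 fold change 0.93, SE 0.11, adjusted p = 9.5e-09), and SGO1, the gene with the fewest reads of the 46 (39 and 58 counts in siControl, 101 and 94 counts in siALKBH5), had a log2 fold change of 0.97 (SE 0.21, adjusted p = 3.7e-04).

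All 5 spindle assembly genes rose, with a median log2 fold change of 0.96. TPX2, which activates AURKA and nucleates microtubules near chromosomes, was the most abundant of the 46, at 179.8 and 181 CPM in siControl and 346 and 355 CPM in siALKBH5 (log2 fold change 0.96, SE 0.03, adjusted p = 4.7e-23). AURKA, the kinase of spindle poles, was at 63.7 and 68.3 CPM and 127 and 129.6 CPM (log2 fold change 0.96, SE 0.05, adjusted p = 4.2e-18). Their log2 fold changes were both 0.96. TPX2 over AURKA, as a ratio of FPKM, was 2.29 and 2.15 in siControl and 2.21 and 2.22 in siALKBH5, with overlapping groups (exact permutation p = 1).

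SPAG5 (astrin, chr17:28577565-28599279, minus strand), which stabilizes attachments and spindle poles, was next to SPC24 by fold, at 38.05 and 37.2 CPM in siControl and 85.2 and 90.8 CPM in siALKBH5 (log2 fold change 1.22, SE 0.06, adjusted p = 2.2e-18). HMMR, a hyaluronan receptor that also acts at the spindle, was at 34.3 and 32.2 CPM and 62.9 and 61.01 CPM (log2 fold change 0.90, SE 0.06, adjusted p = 1.4e-13). NUSAP1, which bundles microtubules, had the lowest log2 fold change of the group, from 8.63 and 7.06 CPM to 10.1 and 10.5 CPM (log2 fold change 0.40, SE 0.14, adjusted p = 0.027). Its call was lost with DESeq2 (adjusted p = 0.13), without siControl replicate 2 (log2 fold change 0.25, adjusted p = 0.29) and without siALKBH5 replicate 2 (0.087). NUSAP1 shares 62.2% of its exon bases with AC087721.2, a gene listed at 0 in all 4 libraries, and the part of this overlap in its value was not tested.

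**Figure D3:**
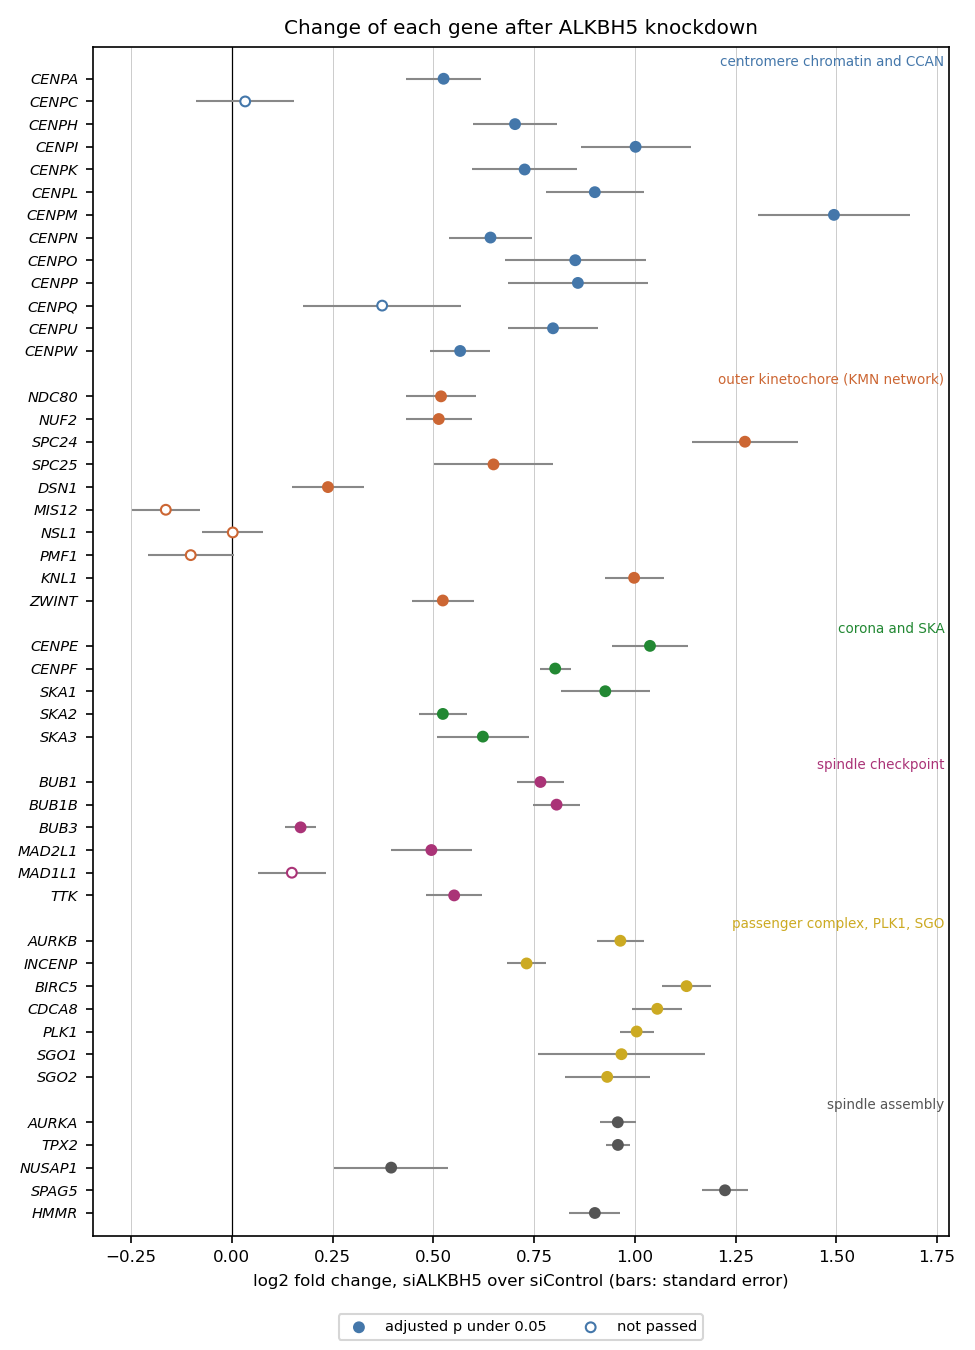
Log2 fold change of each of the 46 genes, siALKBH5 over siControl, with bars for the standard error, filled points for an adjusted p under 0.05 and open points for genes that did not pass. The 6 open points are CENPC, CENPQ, MIS12, NSL1, PMF1 and MAD1L1, and the passenger and spindle assembly groups lie furthest to the right as groups, with medians of 0.97 and 0.96.

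Ordered by level per length in siControl, TPX2 was first at 50.04 ± 0.229 FPKM (mean ± SD, n = 2), followed by CENPW at 33.4 ± 1.83 FPKM, AURKA at 22.5 ± 1.09 FPKM, AURKB at 16.3 ± 0.0596 FPKM and PLK1 at 15.04 ± 0.0122 FPKM. At the other end were CENPO at 0.866 ± 0.286 FPKM, SGO1 at 0.737 ± 0.148 FPKM and CENPP at 0.407 ± 0.00214 FPKM. The last neighbours CENPO and SGO1 overlapped between libraries (0.664 and 1.07 FPKM and 0.632 and 0.842 FPKM), so their order was within the spread. Neither level nor length went with the size of the change across the 46 genes. The log2 fold change had Pearson's r = 0.05 (Spearman's rho = 0.10) with the log2 mean CPM and r = 0.03 (rho = 0.10) with the log2 gene length, as descriptions across genes that share the same 4 libraries.

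**Figure D4:**
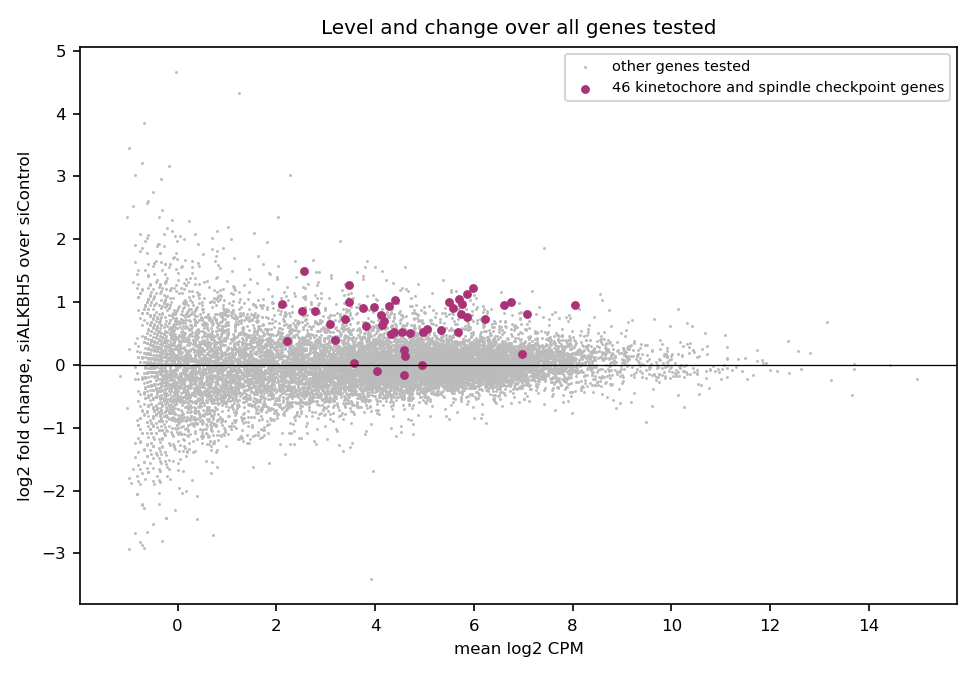
Log2 fold change (siALKBH5 over siControl) against mean log2 CPM for all 15075 genes tested in grey, with the 46 kinetochore and spindle genes in purple. The 46 spread from low to high levels, and 40 of them stand above 0 at an adjusted p under 0.05, with a median of 0.75 against -0.01 for all genes.

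The direction was shared by the replicates. With libraries set side by side by number, 43 of the 46 were higher in siALKBH5 in both pairs and 1, MIS12, was lower in both. Same-numbered libraries are not known to belong together. The share of all genes tested that were higher in both pairs is not given here. A stricter condition, both siALKBH5 libraries above both siControl libraries, held for 32.8% of all genes tested. The median log2 ratio was 0.77 between the libraries numbered 1 and 0.69 between those numbered 2, and across the 46 genes the ratios had r = 0.82 (rho = 0.75), again as a description. The median gap between the pairs was 0.10 on the log2 scale. CENPI (log2 ratios 0.74 and 1.27), CENPQ (0.12 and 0.62) and CENPO (1.26 and 0.55) were among the widest, and these 3 genes had 59 to 256 counts in each library.

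**Figure D5:**
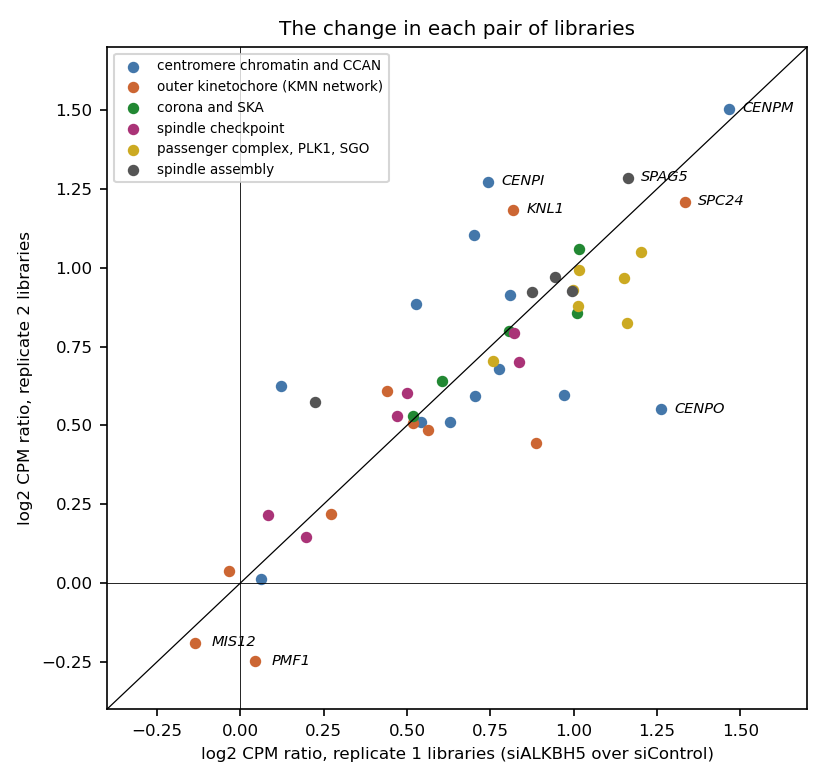
Log2 ratio of CPM, siALKBH5 over siControl, between the libraries numbered 1 (horizontal) and those numbered 2 (vertical) for each of the 46 genes, coloured by role, with the line of equal ratios. Of the 46 points 43 lie in the upper right quadrant, MIS12 lies in the lower left, and CENPO lies furthest from the line at 1.26 against 0.55. The share of all genes tested in each quadrant is not shown.

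In the promoters, TTTGAA was found on either strand in 19 of the 37 genes matched (51.4%), against 18.2% of the 27305 genes in the RefSeq table and 13.5% of the 10374 of them that were tested here. In 18 of the 19 it lay within 50 bases of the start site on either side, a window chosen after the positions were seen. That was 48.6% of the 37 genes, against 5.77% of all genes in the table and 4.27% of those tested. The exception was CENPC, where it lay at positions -90 to -85 on the opposite strand. The variant TTCGAA was in 4 genes (10.8%, against 1.82% of all).

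CCAAT was in 25 of the 37 (67.6%, against 39.7% of all and 42.9% of those tested), and both CCAAT and TTTGAA were in 12 (32.4%, against 8.37% of all). This joint count did not require CCAAT to lie upstream of TTTGAA, and its share among the genes tested is not given here. E2F motifs are known from many genes of DNA synthesis, and they were set beside all genes in the table and beside the genes tested. TCCCGC was in 48.6% of the 37 genes, 30.4% of all genes and 48.4% of those tested, and TGGCGC was in 21.6%, 18.9% and 30.0%. These are counts of letters, and a match is no evidence of a bound site.

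Within the 37, the presence of TTTGAA did not go with a larger change, as the median log2 fold change was 0.65 with it and 0.75 without it. SPC24 (1.27), CENPE (1.04), CENPI (1.00) and AURKB (0.96) rose without it in their windows. Among the 6 genes that did not pass the test, CENPC held it, and CENPQ, MIS12, NSL1, PMF1 and MAD1L1 did not. The 9 genes not matched to a window were CENPL, CENPH, CENPM, BUB3, BIRC5, TPX2, KNL1, AURKA and TTK. All of these rose, CENPM (1.49) and BIRC5 (1.13) among them, so the comparison within the 37 leaves out only genes that rose.

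Other genes of the pathway were taken as 3 further lists by role, of 32 genes in all. Of these 21 rose and 1 fell, with a median log2 fold change of 0.44. Among 9 genes for CENPA loading and further centromere proteins, 5 rose and 1 fell. HJURP, the chaperone that deposits CENPA, was highest, at 33.5 and 32.01 CPM in siControl and 62.1 and 63.1 CPM in siALKBH5 (log2 fold change 0.93, SE 0.06, adjusted p = 4.7e-14). CENPT, which links the CCAN directly to the NDC80 complex, was lowest, at 20.9 and 22.9 CPM and 18.1 and 18.5 CPM (log2 fold change -0.26, SE 0.09, adjusted p = 0.03). Centromere proteins thus moved in both directions in this list, although the call of CENPT was lost with DESeq2, with no expression filter and as each of 3 libraries was left out.

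Of 10 genes of the RZZ complex and checkpoint partners 8 rose, with a median of 0.57. HASPIN, the kinase whose histone mark attracts the passenger complex, was highest, at 7.94 and 6.11 CPM in siControl and 15.2 and 15.7 CPM in siALKBH5 (log2 fold change 1.14, SE 0.13, adjusted p = 2.1e-08), and MAD2L1BP, which helps to silence the checkpoint, was lowest (log2 fold change -0.06, SE 0.07, adjusted p = 0.55). Of 13 spindle pole and microtubule genes 8 rose, with a median of 0.46. ASPM, a spindle pole protein, was highest (log2 fold change 0.88, SE 0.05, adjusted p = 4.0e-16), and NUMA1, which anchors dynein at the poles, was lowest at 247 and 248 CPM against 248 and 249 CPM (log2 fold change 0.00, SE 0.03, adjusted p = 0.97).

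Genes of another phase rose as well. Of 20 DNA replication genes 18 rose, with a median log2 fold change of 0.70 and a sum of 635.4 and 635.0 CPM in siControl against 936.9 and 931.0 CPM in siALKBH5. CDC45, a part of the replicative helicase, was highest, at 4.34 and 3.502 CPM in siControl and 14.9 and 15.7 CPM in siALKBH5 (log2 fold change 1.97, SE 0.15, adjusted p = 8.5e-13). GINS3, of the same helicase, was lowest, at 13.6 and 13.01 CPM and 13.4 and 13.1 CPM (log2 fold change -0.00, SE 0.12, adjusted p = 0.99). The difference between this list and the 46 genes was not tested.

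Several members share exon bases with neighbours. Strand was not marked by the library kit, so reads on bases shared with the opposite strand cannot be assigned by strand. For NUSAP1, PMF1 and BUB1B the only partner lies on the same strand, where a strand mark would not separate the reads either. Of the 46, 18 share some exon bases with another annotated gene and 10 share more than 10%. Besides NUSAP1, CENPP, CENPO and PMF1, these were CENPN (22.8%), SGO1 (17.7%), SPAG5 (15.9%), PLK1 (12.5%), CENPU (11.7%) and BUB1B (10.2%). Of 11 pseudogene copies recognized by name, 10 were at 0 in every library and SKA2P1 had 2 counts in 1 library.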

How the data were processed

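Poly-A RNA from HaCaT cells was sequenced and the authors deposited raw counts per gene, without normalization, in 2 tables that each hold 1 siControl and 1 siALKBH5 library. The submitters' processing notes name CASAVA, HISAT2 2.0.5, featureCounts 1.5.0-p3, DESeq2 1.20.0 and hg38, and the counting options for strand and shared exons are not given in the sources used here. FPKM values that the authors deposited were left out, because each table carries its own scaling. Fold changes, p-values and adjusted p-values of the authors, which compare 1 library with 1, were not used either.

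The counts of 4 libraries (siControl and siALKBH5, 2 each, 16017502 to 18837807 counts) entered a quasi-likelihood fit without covariates (glmQLFit, glmQLFTest) in edgeR 4.0.16 (R 4.3.3) after filterByExpr and TMM scaling, with Benjamini-Hochberg adjustment over 15075 genes and a threshold of 0.05. CPM are TMM-scaled, and FPKM were recomputed as this CPM per kilobase of the listed gene length. Each SE given is the absolute log2 fold change divided by the square root of the F statistic of this fit. Alternatives were DESeq2 1.42.0, other scaling, other filters, a replicate block and leaving out each library. The fits were tested on simulated counts. All 58735 gene identifiers and coordinates are those of GENCODE 29 on GRCh38, and promoters are from RefSeq (GRCh38.p14).

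Named are ALKBH5, MKI67, all 46 genes and the highest and lowest gene of each further list. Overlap partners, single marker genes and complex groupings were named after values were seen, and the members and lists were chosen with earlier results of these data known. The ratios between genes or complexes were not fixed before values were seen either. The replicate numbers come from the sample titles, which do not state a shared culture. Shares of promoters are descriptions with no test.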

Additional observations from a re-analysis of the deposited data

How the results depend on the processing

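The 40 higher calls among the 46 genes became 38 with DESeq2, 39 with library size as the only scaling and 38 to 39 without siControl replicate 1, siControl replicate 2 or siALKBH5 replicate 2, and 40 were called under each of the other alternatives run. Those past both thresholds, 8 in the report, numbered 6 to 11. With a replicate block the counts were 40 and 8, and it changed no call of the 46 genes. Same-numbered libraries did not deviate together (r = 0.03 over 15075 genes), so the numbers were not taken to pair them. Of 460 values of single genes under alternatives, 449 kept their direction and side of the threshold, 7 lost the call (DSN1 and NUSAP1) and 4 changed sign without being called. These were CENPC without siControl replicate 1 (-0.019, with a range of -0.019 to 0.093 as libraries were left out) and NSL1 with library size only (-0.020), without siControl replicate 2 (-0.014) and without siALKBH5 replicate 2 (-0.016, range -0.016 to 0.026), and the cause was not tested. Over all genes, DESeq2 called 2054 higher and 1444 lower against 2913 and 2610 in edgeR. Of the 32 other kinetochore and spindle genes, 1 was lower in edgeR, 0 with DESeq2 (0 also at an unadjusted p under 0.05) and 0 with no expression filter (1 at an unadjusted p under 0.05), and leaving out 1 library gave 0 to 1. Median log2 fold change of the 46 ranged from 0.72 to 0.78. With library size only, MIS12 was lower at an unadjusted p under 0.05 (adjusted p = 0.085). With 2 libraries a group the standard errors were 0.03 to 0.21, and the differences of CENPC, NSL1 and PMF1 were smaller than their own standard errors.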
